A study of Homo sapiens with 4 samples.

Results

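The miR-378 family is a set of mature miRNAs, most of them of near-identical sequence, and 9 of its names were taken from the count table by name: hsa-miR-378a-3p, hsa-miR-378a-5p, hsa-miR-378c, hsa-miR-378d, hsa-miR-378e, hsa-miR-378f, hsa-miR-378g, hsa-miR-378h and hsa-miR-378i. Among them, miR-378a-5p has another sequence. All 9 were among the 2656 mature miRNAs listed. The counts came from small RNA-seq of neural cells, cortical interneurons differentiated in culture from the H1 human embryonic stem cell line. In 2 cultures the maturation medium held about 50 to 100 mM ethanol for 7 days, and 2 unexposed cultures were kept for 7 days without it. All 4 libraries come from this 1 cell line and nothing beyond the statement that treatments were duplicated says how far the replicates were separate. The study's methods add a further day without ethanol before the exposed cells were collected. The libraries held between 12100425 and 24858230 counts, and each exposed library was deeper than each unexposed library, so that depth and exposure cannot be told apart.

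A miRNA is cut from a hairpin precursor, and either arm of the hairpin can be loaded into an Argonaute protein, where bases 2 to 8 (the seed) do most of the pairing with target mRNAs. miR-378a lies in an intron of PPARGC1B, which codes for PGC-1β, a coactivator of genes of mitochondrial and lipid metabolism. The miRNA is best known from muscle, liver and brown fat, tissues with a high oxidative metabolism. The other letters of the family were named for sequences that resemble the 3p arm.

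The sequences are given first because the names differ by so few bases. RefSeq (GRCh38.p14) held a mature sequence for 7 of the 9 members and for 2367 of the 2656 listed miRNAs, and the members it did not match are named only. They are written 5′ to 3′ with the seed in capitals, beginning with the most abundant member and the others that start at the same base.

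hsa-miR-378a-3p: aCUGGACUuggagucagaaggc
hsa-miR-378c: aCUGGACUuggagucagaagagugg
hsa-miR-378f: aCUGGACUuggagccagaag
hsa-miR-378h: aCUGGACUuggugucagaugg
hsa-miR-378i: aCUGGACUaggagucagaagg
hsa-miR-378g: aCUGGGCUuggagucagaag

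Counted from 1 at the 5′ end, with the miR-378a-3p base first, miR-378i differed from miR-378a-3p by U9A over the 21 positions they share, and miR-378f by U14C over 20 positions. miR-378h differed by A12U and A19U. miR-378g differed by A6G, which lies within the seed, so that miR-378g was the only one of these with another seed. miR-378c was identical to miR-378a-3p over the first 20 bases and parted from it at the 3′ end (G21A and C22G). Of the 1560 hairpins in the RefSeq table, 2 held those first 20 bases, MIR378A and MIR378C, and MIR378A alone held all 22. A read of the first 20 bases therefore does not tell these precursors apart. How the authors counted reads that match more than 1 name is not given in the sources used here.

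Among the listed miRNAs with a RefSeq mature sequence, the same seed, CUGGACU, was found in 7. These are the members miR-378a-3p, miR-378c, miR-378f, miR-378h and miR-378i and, outside the 9, hsa-miR-378b and hsa-miR-422a. The seeds of miR-378d and miR-378e were not read, because no such sequence was matched to them. The MIR378E hairpin did hold the first 16 bases of miR-378a-3p, which include the seed. miR-422a differs from miR-378a-3p by G10A and A12G only.

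hsa-miR-378b: aCUGGACUuggaggcagaa
hsa-miR-422a: aCUGGACUuagggucagaaggc

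The hairpin of MIR378A, on the plus strand at chr5:149732825-149732890, is shown with both mature arms in capitals, since these are the only members that come from 1 precursor.

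MIR378A: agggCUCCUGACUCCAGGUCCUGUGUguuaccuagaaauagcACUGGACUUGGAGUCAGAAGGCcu

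The genes lie apart from each other. In GENCODE 29 on GRCh38, matched by name because the counts carry no coordinates, MIR378A lay in an intron of PPARGC1B on chromosome 5 and on the same strand. MIR378C (chromosome 10, 130962588 to 130962668) and MIR378F (chromosome 1, 23929070 to 23929147) lay in no other annotated gene. MIR378E (chromosome 5, 170028488 to 170028566) lay in an intron of DOCK2. MIR378G (chromosome 1, 94745860 to 94745900) lay in an intron of the pseudogene SLC44A3-AS1. MIR378H (chromosome 5, 154829458 to 154829540) lay opposite to FAXDC2 within an intron. MIR378I (chromosome 22, 41923222 to 41923297) overlapped an exon of TNFRSF13C. miR-378d has 2 annotated precursors, which its counts do not tell apart. MIR378D1 lay in an intron of C4orf50 on chromosome 4 (5923275 to 5923328), and MIR378D2, on another chromosome, lay opposite to PDP1 within an intron and in an exon of a lincRNA.

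From 0.0617% to 0.0982% of all counts fell to the 9 members in each library, and miR-378a-3p made up most of that. Levels are given in CPM, counts scaled to a common library total, after TMM scaling, which evens out differences in composition between libraries. A read spans a whole mature miRNA, so no length correction was applied. miR-378a-3p was at 728 and 738 CPM in exposed replicates 1 and 2, and at 698 and 516 CPM in unexposed replicates 1 and 2. It ranked 85 by mean level among the 2656 listed miRNAs. Both exposed cultures lay above both unexposed cultures. After TMM scaling, unexposed replicate 1 was close to the exposed ones and unexposed replicate 2 was far below the other 3. Before it, the levels were 826 and 723 CPM with ethanol and 590 and 548 CPM without it. How far unexposed replicate 2 stood apart thus depended on the scaling.

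**Figure D1:**
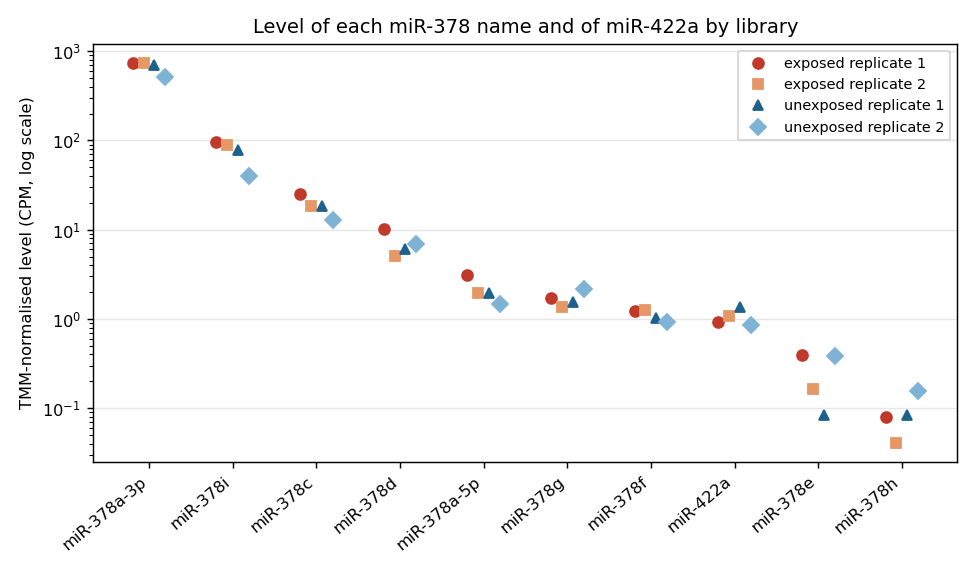
TMM-normalised level in CPM (log axis) of 8 names from the 3p side, of miR-378a-5p and of miR-422a, with 1 point per library. miR-378a-3p stands at 516 to 738 CPM, miR-378i at 39.9 to 95.2 CPM and the others below these, and for most names the points of the groups lie together or overlap.

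miR-378i was the next most abundant, at 95.2 and 87.8 CPM with ethanol and 78.1 and 39.9 CPM without it. As with miR-378a-3p, the groups did not overlap, and unexposed replicate 2 was the lowest. miR-378c was at 25.1 and 18.3 CPM with ethanol and 18.5 and 12.8 CPM without it, where exposed replicate 2 fell just below unexposed replicate 1. miR-378d was at 10.1 and 5.01 CPM with ethanol and 6.10 and 6.84 CPM without it, so that the exposed cultures held both its highest and its lowest value.

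The order miR-378a-3p, miR-378i, miR-378c, miR-378d was the same in every library. Below them the order was not fixed. miR-378a-5p was at 3.13 and 1.93 CPM with ethanol and 1.95 and 1.48 CPM without it. miR-378g was at 1.71 and 1.36 CPM against 1.53 and 2.18 CPM, and in unexposed replicate 2 it was above miR-378a-5p. miR-378f was at 1.23 and 1.27 CPM with ethanol and 1.02 and 0.933 CPM without it, on 12 to 31 counts per library. miR-422a, at 0.912 and 1.07 CPM with ethanol and 1.36 and 0.855 CPM without it, could not be separated from miR-378f by level.

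2 members were too rare to test. With ethanol, miR-378e had 10 and 4 counts, and without it 1 and 5. For miR-378h the counts were 2 and 1 with ethanol and 1 and 2 without it. A count of 0 still allows a level of up to 3 counts, which was between 0.121 and 0.248 CPM before scaling, so that miR-378h was below it in all 4 libraries and miR-378e in 1. Of the names outside the 9, miR-378b had 2, 1, 0 and 2 counts and hsa-miR-378j had 1 count in 1 unexposed library and 0 in the others. No order among these names, and no difference between cultures, was detectable at this depth.

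As shares of all counts under the miR-378 names and miR-422a, miR-378a-3p took 84.1% (95% Wilson interval 83.6 to 84.6%) and 86.3% (85.9 to 86.8%) in the exposed libraries. Without ethanol it took 86.5% (85.8 to 87.2%) and 88.7% (88.0 to 89.4%). miR-378i took 11.0% (10.6 to 11.4%) and 10.3% (9.86 to 10.7%) with ethanol, and 9.68% (9.10 to 10.3%) and 6.86% (6.31 to 7.45%) without it. Without molecular identifiers in the reads, such intervals hold for counting error alone. The share of miR-378a-3p was lowest in exposed replicate 1 and highest in unexposed replicate 2, and for miR-378i the order was the reverse.

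The arms of MIR378A differed widely in level. In the exposed libraries miR-378a-3p had 18362 and 17972 counts and miR-378a-5p had 79 and 47, which made the 3p arm 232 and 382 times as frequent. In the unexposed libraries the counts were 8230 and 6637 against 23 and 19, or 358 and 349 times. The 3p arm was thus ahead by more than 2 orders of magnitude in each culture. On the log2 scale, with 0.5 added to each count, the ratio was 8.21 ± 0.503 (SD, n = 2) in exposed and 8.43 ± 0.0291 (SD, n = 2) in unexposed cells. The difference of -0.224 was smaller than the spread between the exposed cultures (exact two-sided permutation p = 1), and it was 0.132 without exposed replicate 1 and -0.580 without exposed replicate 2. With 2 cultures per group, the smallest p that this test can give is 0.33. Both arms could be tested for 195 pairs of 5p and 3p names, and 95 of these had the 3p arm ahead. By the log2 ratio of 3p to 5p, miR-378a ranked 6 among the pairs, at a mean of 8.32. The median absolute log2 ratio of those pairs was 3.30, and in 18 pairs it was above that of miR-378a. In 108 pairs the absolute difference between exposed and unexposed cells was larger than for miR-378a.

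Ratios between names within a library need no scaling and show whether names of like sequence moved in step. miR-378i counts were 13.1% and 11.9% of the miR-378a-3p counts with ethanol, and 11.2% and 7.73% without it. The groups did not overlap, with a log2 difference of 0.422 (exact two-sided permutation p = 0.33). Unexposed replicate 2 stood apart, and without it the difference was 0.156. miR-378c counts were 3.44% and 2.48% of miR-378a-3p with ethanol and 2.65% and 2.49% without it. Here 3 libraries were close together and exposed replicate 1 was higher.

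miR-378d counts were 1.39% and 0.679% of miR-378a-3p with ethanol and 0.875% and 1.33% without it, a difference as large within the exposed group as anywhere among the 4 libraries. miR-378g, with the altered seed, was at 0.234% and 0.184% with ethanol and 0.219% and 0.422% without it. Its value in unexposed replicate 2, from 28 counts, was the highest of the 4. miR-378f was at 0.169% and 0.172% with ethanol and 0.146% and 0.181% without it, and was the steadiest of the names. miR-422a was at 0.125% and 0.145% with ethanol and 0.194% and 0.166% without it, which did not overlap (log2 difference -0.440, exact two-sided permutation p = 0.33).

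**Figure D2:**
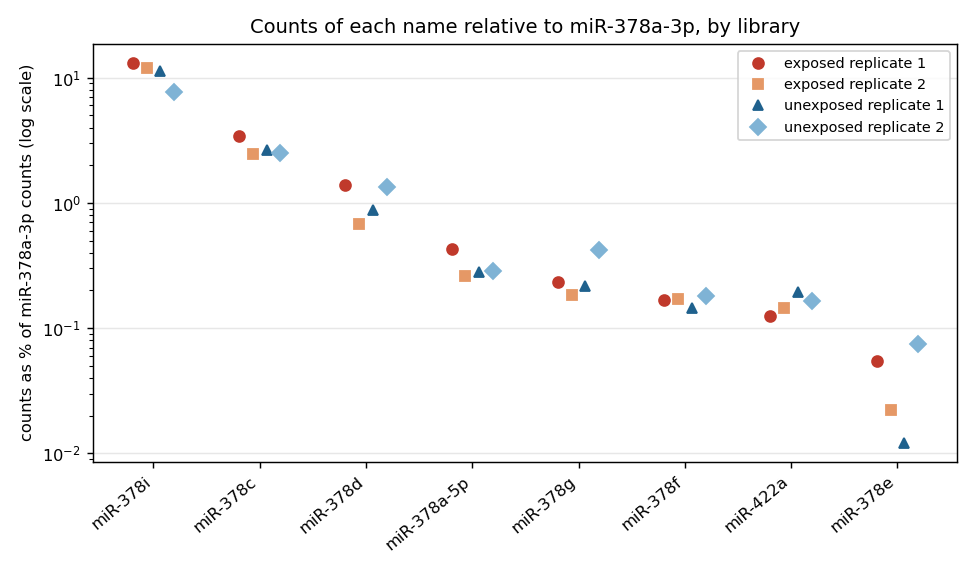
Counts of each name as a percentage of the miR-378a-3p counts of the same library (log axis), with 1 point per library. miR-378f keeps to 0.146 to 0.181%, while miR-378i runs from 7.73 to 13.1% and miR-378d from 0.679 to 1.39%.

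The spread of these ratios was set beside the spread that counting alone gives. The SD of the log2 ratio over the 4 libraries was 0.332 for miR-378i, where counting alone gives 0.0473. It was 0.224 against 0.0878 for miR-378c, 0.494 against 0.140 for miR-378d and 0.521 against 0.272 for miR-378g. For these names the ratio thus varied between libraries by more than counting alone gives. The values also hold any other spread between the libraries, and the source of the excess was not tested. For miR-378f the SD was 0.129 and for miR-422a 0.281, and counting alone gives 0.341 and 0.345, so that no departure from 1 fixed ratio was detectable at this depth. miR-378a-5p, the other arm of the same precursor, had 0.319 against 0.258.

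Other miRNAs give the background for these values. Over all 862 other tested miRNAs the SD of the log2 ratio to miR-378a-3p had a median of 0.392, with quartiles at 0.263 and 0.552. At or below the value of miR-378f lay 3.83% of them, and at or below that of miR-378c 17.5%. For miR-378i the share was 38.7%, for miR-378d 68.4% and for miR-378g 71.2%. Among the 375 miRNAs at a mean of 10 CPM or more, the median was 0.324, close to miR-378i. At or below miR-378c lay 25.9% of these, and at or below miR-378i 52%. miR-378i, miR-378d and miR-378g therefore kept no closer to miR-378a-3p than many miRNAs of unrelated sequence, and whether reads were shared between names cannot be read from these ratios alone. Precursors at other loci and reads shared between names were not told apart.

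**Figure D3:**
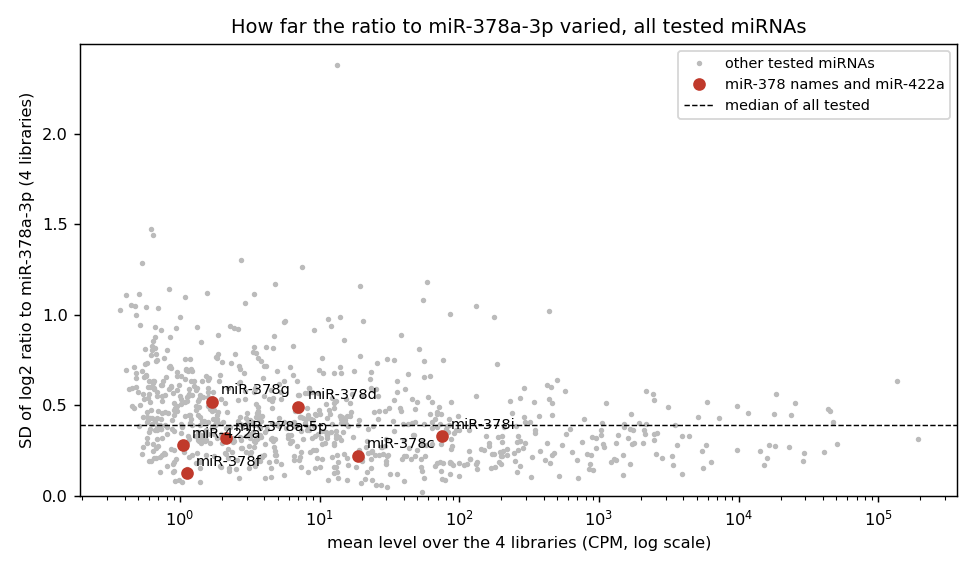
SD over the 4 libraries of the log2 ratio of each tested miRNA to miR-378a-3p, against its mean level in CPM (log axis). Grey points are the other tested miRNAs, red points the miR-378 names and miR-422a, and the dashed line is the median of 0.392. miR-378g and miR-378d lie above that line and miR-378f lies near the lower edge.

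Exposed and unexposed cells were compared for all 863 miRNAs that passed the filter on low counts, 7 of the 9 members among them, with edgeR's quasi-likelihood test. No member passed an unadjusted P of 0.05 (0 of 7), where 39 of the 863 miRNAs, or 4.52%, did. None passed that P together with a fold change of 2, which 20 miRNAs, or 2.32%, did. After Benjamini-Hochberg adjustment 0 of the 863 passed 0.05. With limma-voom and with DESeq2 in place of edgeR, 0 members had an unadjusted P under 0.05 either. The log2 fold change was positive for 6 of the 7 tested members, with a median of 0.36. Over all tested miRNAs the median was -0.01, and 48.8% were positive. In 3 members, miR-378a-3p, miR-378f and miR-378i, both exposed cultures were above both unexposed cultures, as they were in 18.8% of the miRNAs tested. The members are not independent of each other, because names of near-identical sequence may hold the same reads. The cells were measured in bulk, so that fewer cells of a type and less of a miRNA per cell cannot be told apart.

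miR-378i had the lowest P of the members. Its level was 91.5 ± 5.25 CPM (SD, n = 2) with ethanol and 59.0 ± 27.0 CPM (SD, n = 2) without it. This made a 1.55-fold difference, or 0.63 ± 0.33 (standard error) as a log2 fold change, with an unadjusted P of 0.0934 and an adjusted p of 0.922 in edgeR. It rested on the unexposed cultures. Without unexposed replicate 2 it was 0.22, and without unexposed replicate 1 it was 1.20. In such a fit the lone unexposed culture is assumed to vary like the other group.

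miR-378a-3p was at 733 ± 7.19 CPM (SD, n = 2) with ethanol and 607 ± 129 CPM (SD, n = 2) without it. As a log2 fold change this was 0.27 ± 0.23 (standard error), with an unadjusted P of 0.270 and an adjusted p of 0.925. Without unexposed replicate 1 it was 0.51, and without unexposed replicate 2 it was 0.06. miR-378c gave a log2 fold change of 0.47 (± 0.31 standard error, unadjusted P 0.170), and of 0.76 without unexposed replicate 1 and 0.22 without unexposed replicate 2. For all 3 names the value was higher without unexposed replicate 1 and lower without unexposed replicate 2.

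miR-378d gave a log2 fold change of 0.22 (± 0.38 standard error, unadjusted P 0.575), which was -0.37 without exposed replicate 1 and 0.64 without exposed replicate 2. The sign for miR-378d therefore hung on 1 culture. miR-378a-5p, the minor arm of MIR378A, gave a log2 fold change of 0.57 (± 0.38 standard error, unadjusted P 0.175), and of 0.18 without exposed replicate 1. miR-378f had 0.36 (standard error 0.35, unadjusted P 0.339), between 0.29 and 0.42 with each library left out. miR-378g was the member with a negative value, -0.28 (standard error 0.35, unadjusted P 0.455), and it was -0.003 without unexposed replicate 2. miR-422a had -0.15 (standard error 0.39, unadjusted P 0.710), which turned positive without unexposed replicate 1 and with library size only as the scaling.

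**Figure D4:**
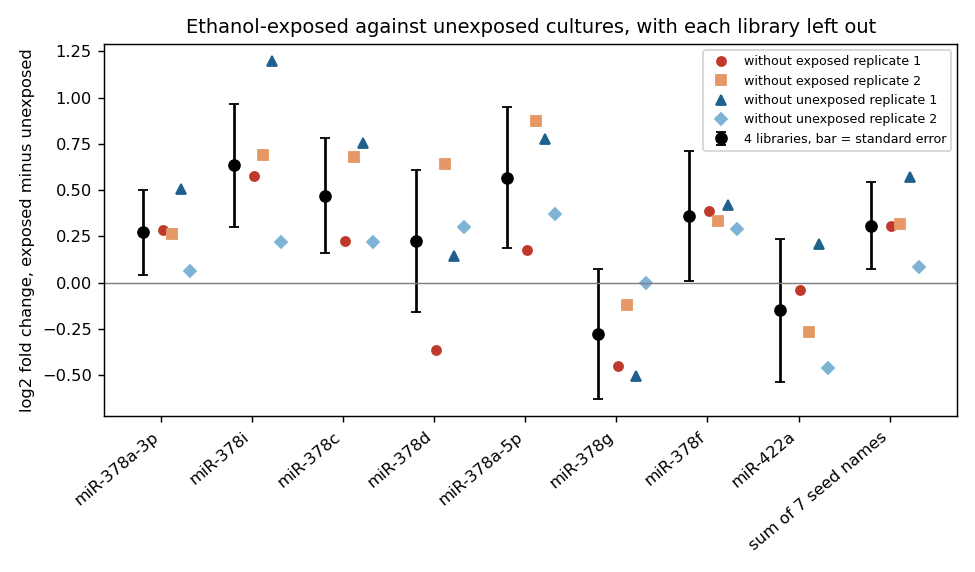
Log2 fold change of exposed against unexposed cultures for the 7 tested members, miR-422a and the sum over the 7 names of the seed. Black points use all 4 libraries with the standard error from edgeR as the bar, and coloured points leave out 1 library each. miR-378i moves from 0.22 to 1.20 depending on which unexposed library is left out, and miR-378d changes sign.

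Since reads may be split between names, the 7 names in which the seed CUGGACU was found were also added up before the fit. miR-378d and miR-378e, whose seeds were not read, were left out. The sum was 851 and 847 CPM with ethanol and 797 and 571 CPM without it, again with unexposed replicate 2 low after TMM scaling. This was a 1.24-fold difference, a log2 fold change of 0.31 ± 0.24 (standard error), with an unadjusted P of 0.229 and an adjusted p of 0.926 in edgeR. Without unexposed replicate 1 the value was 0.57, and without unexposed replicate 2 it was 0.08. A read counted under more than 1 name enters this sum more than once. With the other 3p names of the family added, a sum chosen after the data were seen, the value was 0.31 (P 0.230).

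Outside the family, the 3 miRNAs whose log2 levels, centred over the 4 libraries, lay nearest to those of miR-378a-3p were miR-383-5p, miR-203a-3p and miR-185-3p. They were the nearest of 373 miRNAs at a mean of 10 CPM or more, with root mean square differences of 0.018, 0.0413 and 0.0534 on the log2 scale over 4 libraries. Each is named for its pattern only. miR-383-5p was at 59.9 and 58.7 CPM with ethanol and 57.0 and 41.9 CPM without it, with unexposed replicate 2 again the lowest. Before TMM scaling its unexposed libraries were at 48.2 and 44.5 CPM. Of the family, miR-378f came nearest at 0.112, which would rank 25 among them, though its mean of 1.11 CPM lay below their limit. The SD of its log2 ratio to miR-378a-3p, 0.129, was below the 0.341 that counting alone gives. Its rank is therefore not secure. miR-378c was at 0.194 and miR-378i at 0.287.

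2 lists put the family beside miRNAs of related settings. Of 16 miRNAs linked to brown fat or muscle, 14 were tested and 0 had an unadjusted P under 0.05 in edgeR. 5 of the 14 had a positive log2 fold change, and their median was -0.10. The most abundant were miR-26a-5p at 44200 to 59700 CPM, miR-27b-3p at 6360 to 8620 CPM, miR-26b-5p at 2150 to 2890 CPM and miR-27a-3p at 201 to 365 CPM. Of 9 miRNAs from introns of metabolic genes, 5 were tested and 0 had an unadjusted P under 0.05, with 2 of the 5 positive and a median of -0.08. They were led by miR-103a-3p and miR-107, which lie in genes for pantothenate kinases and were at 16700 to 38400 CPM and 298 to 572 CPM. The others named by level are miR-499a-5p, from a myosin heavy chain gene, at 25.4 to 29.2 CPM, and miR-33a-3p, from the gene of the sterol regulator SREBF2, at 2.63 to 5.19 CPM. miR-33a-3p was higher in both exposed cultures, with a log2 fold change of 0.50 (standard error 0.34, unadjusted P 0.181). In the brown fat and muscle list, miR-26b-5p was lower in both (-0.22, standard error 0.22, unadjusted P 0.360 in edgeR). That whole list summed to 54600 to 59400 CPM with ethanol and 59800 to 69600 CPM without it.

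Neuronal markers were present, though none on the list was chosen for interneurons in particular. Of 10 neuronal markers 9 were found, and they summed to 310000 to 396000 CPM with ethanol and 372000 to 489000 CPM without it, led by miR-9-5p and miR-7-5p. Of these 9, 5 had a positive log2 fold change, and their median was 0.09. miR-7-5p was lower in both exposed libraries, at 79200 and 135000 CPM against 187000 and 146000 CPM. 1 of the 9, miR-124-3p, had an unadjusted P under 0.05 (0.0316, adjusted p 0.922 in edgeR), at 5410 and 3360 CPM with ethanol and 2950 and 2190 CPM without it. The 7 pluripotency markers summed to 2.42 to 2.92 CPM with ethanol and 3.48 to 3.89 CPM without it, and miR-367-3p and miR-371a-3p among them were at 0 in all 4 libraries. The 3 leukocyte and microglia markers summed to 0.0777 CPM or less, with miR-142-3p and miR-223-3p at 0. The 3 oligodendrocyte markers summed to 75.7 to 95.8 CPM with ethanol and 76.0 to 116 CPM without it. The 4 muscle markers summed to 178 to 268 CPM with ethanol and 241 to 404 CPM without it, nearly all of it miR-1-3p, while miR-133b was at 0.155 CPM or less. The 2 endothelial markers, miR-126-3p and miR-126-5p, summed to 927 to 1020 CPM with ethanol and 807 to 894 CPM without it. The endothelial sum was thus higher in both exposed libraries, as miR-378a-3p was. The pluripotency sum was lower in both, while the other marker sums overlapped between the groups. The pluripotency sum was led by miR-302b-3p, on 21 to 31 counts per library. miR-372-3p, its other tested marker, overlapped between the groups (log2 fold change 0.02). The part of these markers in the values of miR-378a-3p was not tested.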

How the data were processed

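Small RNA libraries (NEBNext) of 2 ethanol-exposed and 2 unexposed cultures were compared, with groups and replicate numbers taken from the sample labels. Reads had been run through CAP-miRseq by the authors, and the deposited values are raw counts of reads per mature miRNA, with no normalization. The submitters' processing notes name hg19, while the miRNA annotation and the treatment of multiply matching reads are not given in the sources used here. miRNAs were filtered with filterByExpr (minimum count 10, minimum total 15), scaled by TMM (factors 0.846 to 1.13) and tested with edgeR 4.0.16 in R 4.3.3 without covariates, adjusted by Benjamini-Hochberg over all 863. Other tools tried were DESeq2 1.42.0 and limma-voom (limma 3.58.1), beside other scalings and filters, a replicate block, and leaving out each library. The fit was tested on simulated data. Standard errors come from edgeR's F statistic. Libraries of a group differed by more than counting noise (chi-square over miRNAs of 795 and 712 per degree of freedom), so each was counted as 1 sample, which does not show that the cultures or RNA were separate. P values measure only the spread between these samples, which may be technical. The members and lists were chosen with earlier results of these data known. miRNAs named are all 9 members, others with the miR-378 name or seed, the 3 nearest in pattern to miR-378a-3p, and up to 4 of each list by level. Markers beyond these were chosen after their values were seen.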

Additional observations from a re-analysis of the deposited data

How the results depend on the processing

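With the scalings, filters and tools tried, 6 of the 7 tested members kept a positive log2 fold change, and 5 of 7 without exposed replicate 1. The number of members with an unadjusted P under 0.05 was 0, but 1 (miR-378i) with library size only (log2 fold change 0.84, P 0.0301) and 1 with at least 1 count in any library as the filter (miR-378i, P 0.0334), and between 0 and 3 with each library left out. The number also past a fold change of 2 was 0, and between 0 and 1 with each library left out. Of all tested miRNAs, 4.52% had an unadjusted edgeR P under 0.05 in the main fit. This share was 4.29% with library size only and 5.15% with at least 1 count in any library. The fit with 3 members was that without unexposed replicate 1, where more of all miRNAs passed than in the main fit. It leaves 1 unexposed culture, so that its number of members is not read as a difference. Library size only moved the median of all tested miRNAs from -0.01 to 0.145, and upper quartile scaling to -0.119. The sum over the seed names ranged from 0.084 to 0.57 with a library left out. miR-378d ranged from -0.37 to 0.64 and miR-422a from -0.46 to 0.21 in those fits, and miR-422a was 0.011 with library size only. The cause was not tested. Replicate numbers do not pair the cultures in the labels, and deviations of same-numbered libraries correlated at -0.186 over the 863 miRNAs. With the replicate block the sum was 0.33 (edgeR P 0.267), miR-378i had a P of 0.0512, 0 members had a P under 0.05, and 25 rather than 39 of all miRNAs did. Pairing the replicate numbers crosswise, an alternative added on seeing the data, gave 0 members and 59 miRNAs. Depth limits miR-378e, miR-378h, miR-378b and miR-378j, whose counts were 10 or fewer per library.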
